A study of Homo sapiens with 12 samples.

Results

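The genes described here are 36 genes of cholesterol and fatty acid synthesis, found by their symbols among the 20531 genes of the RNAseq tables. They comprise 18 genes of sterol synthesis, 3 genes of sterol uptake and transport (LRP8, TMEM97 and STARD4), 4 regulators of these pathways (SREBF1, SREBF2, SCAP and INSIG1) and 11 genes of fatty acid synthesis. Their expression was measured in SKBR-3 cells, an established human HER2-amplified breast carcinoma line, in 4 groups of 3 samples. Cells received either a non-targeting (NT) siRNA control pool or a FOXA1 siRNA pool for 48 h by the labels and afterwards DMSO, the solvent, or 300 nM lapatinib, which inhibits the kinase activity of HER2 and EGFR, for 24 h. The comparisons ask how the genes of these pathways responded to HER2 inhibition and whether depletion of FOXA1, a pioneer transcription factor, altered that response. All groups share 1 cell line, an siRNA pool and a 24 h exposure, and the siRNA lowered FOXA1 mRNA without removing it.

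Cholesterol is built from acetyl-CoA through mevalonate, farnesyl diphosphate, squalene and lanosterol, and cells also take it up in lipoproteins. Fatty acids are built from the same acetyl-CoA, which ATP citrate lyase (ACLY) releases from citrate, by acetyl-CoA carboxylase (ACACA) and fatty acid synthase (FASN), and are then desaturated and elongated. Both pathways are under the SREBP transcription factors, the products of SREBF1 and SREBF2, which SCAP escorts to the Golgi for activation and INSIG1 holds in the endoplasmic reticulum when sterols are plentiful. SREBP2 is known mainly for the sterol genes and SREBP1c for the fatty acid genes, and both are activated downstream of growth factor signalling. Fatty acid synthase is known to be abundant in HER2-amplified breast cancer cells.

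The expected counts, which are estimated numbers of reads per gene, summed to between 25749578 and 32271850 per library (median 30542430). FOXA1 was at 8307 normalized counts or more in each library with NT siRNA and at 2383 or fewer in each library with FOXA1 siRNA, as the labels state. Normalized counts are counts scaled by the TMM method (edgeR's trimmed mean of M-values) to the mean depth of the 12 libraries. The epithelial markers ERBB2, GRB7, EPCAM, KRT8, KRT18 and KRT19 were expressed, whereas CDH1 was near 0, at 2 to 19 counts per library. The summed level of 7 markers of leukocytes, endothelium and stroma was between 4.83 and 8.89 TPM, a level corrected for transcript length, and that of 4 adipocyte markers between 0.41 and 2.02 TPM with FABP4 at 0 in every library. Of the 36 genes, 34 had a mean count of at least 100, and the desaturases FADS1 and FADS2 had 0 to 14 and 2 to 20 counts per library. Sample 2 of every group stood apart from samples 1 and 3 over all genes, with a chi-square per degree of freedom of 12.1 to 17.6 in the 8 pairs with sample 2 and of 3.62 to 5.68 in the 4 pairs without it. Calls that changed when these 4 libraries were left out, an alternative added after the data were seen, are given beside each comparison. The share of all genes called without these libraries is given for the interaction only. Nothing in the labels says that the replicates came from separate cultures, so p-values measure only the spread between these samples.

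In control cells (NT siRNA and DMSO), fatty acid genes held the highest levels of the 36. FASN, which makes palmitate, had 2012 ± 224 TPM (SD, n = 3) and ranked 45th of all genes by TPM. ACLY followed with 541 ± 19.9 TPM, SREBF1 with 443 ± 91.6 TPM and SCD, the stearoyl-CoA desaturase, with 396 ± 24.4 TPM. The highest sterol genes were SQLE, the squalene epoxidase, at 191 ± 17.4 TPM and FDPS, the farnesyl diphosphate synthase, at 175 ± 22.4 TPM. The lowest of the 34 genes was HSD17B7, a ketosterol reductase, at 5.50 ± 0.868 TPM, and FADS2 and FADS1 were at 0.303 ± 0.0681 and 0.150 ± 0.104 TPM. In this order of levels, 21 of the 35 pairs of neighbours overlapped in their values over the 3 samples, among them SREBF1 and SCD and also SQLE and FDPS, so that their order is not resolved.

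In cells with NT siRNA, lapatinib lowered most of the 34 measurable genes, in the sterol and in the fatty acid branch alike. Of these, 25 fell, 1 rose and 8 did not pass the test (edgeR's quasi-likelihood test, Benjamini-Hochberg adjusted p under 0.05 over all genes tested, used for every call here). Over all 13713 genes tested, 29.2% were called lower and 30.5% higher. The median log2 fold change of the 34 genes was -0.68, against 0.03 over all genes tested. A fall of at least 1 on the log2 scale was seen in 10 of the 34 genes and in 7.13% of all genes tested. Without sample 2 of every group, ACSS2 was also called higher, and the share of all genes in that fit is not given. The sterol synthesis, uptake and transport genes counted 17 lower and 1 higher of 21, with a median of -0.72, and the fatty acid genes without FADS1 and FADS2 counted 6 lower and 0 higher of 9, also with a median of -0.72 (0 higher at an unadjusted p under 0.05 and 0 by DESeq2). In bulk samples such as these, fewer cells that express a gene and less RNA per cell cannot be told apart.

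**Figure D1:**
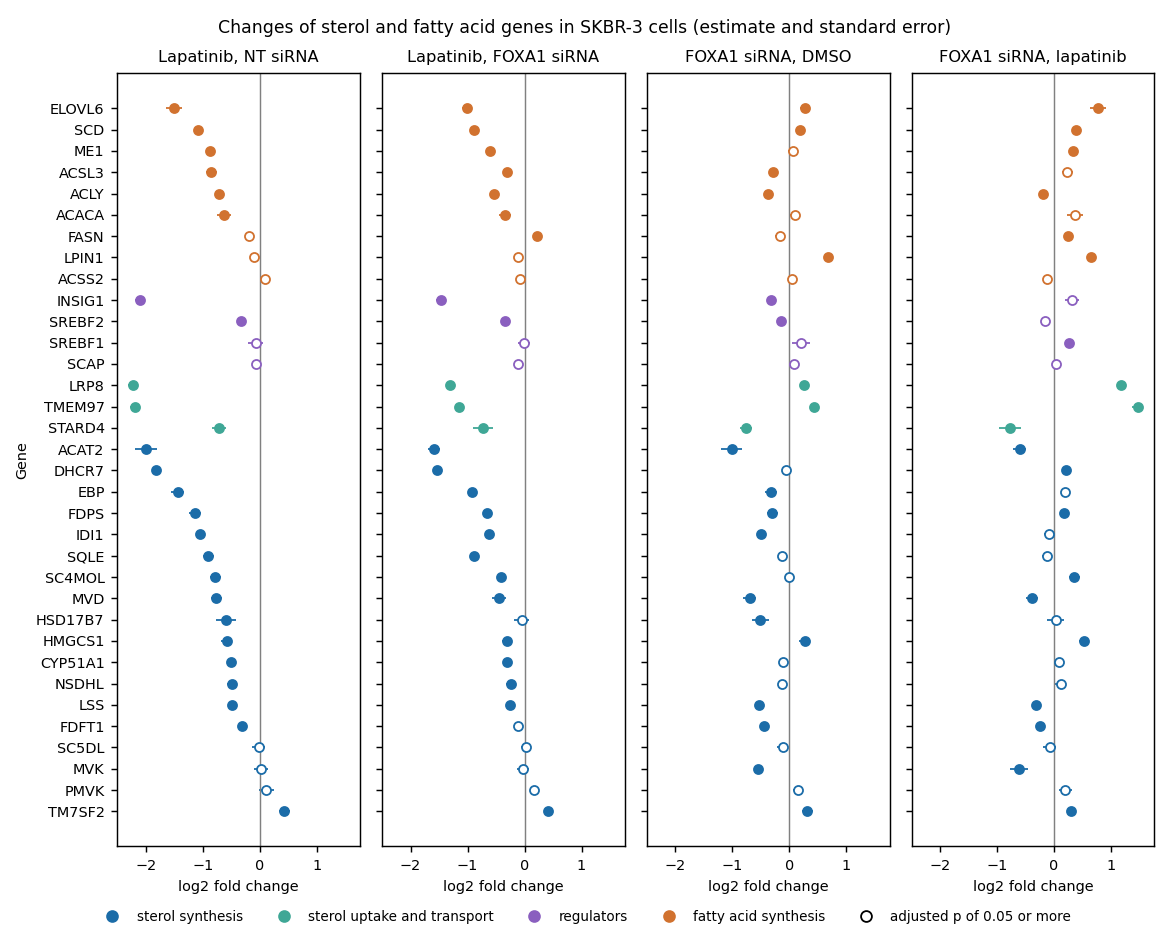
Log2 fold changes (x axis) of the 34 genes with a mean count of at least 100 (y axis, ordered by role and by the response to lapatinib with NT siRNA) in the 4 comparisons, with standard errors as bars (n = 3 against 3) and open circles for an adjusted p of 0.05 or more. With lapatinib and NT siRNA 25 genes lie to the left of 0 as filled circles, whereas after FOXA1 siRNA genes of the same role lie on both sides.

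Among the sterol uptake and transport genes, LRP8 fell most of the 34 genes. LRP8 encodes an apolipoprotein E receptor of the lipoprotein receptor family. Its normalized counts were 3786, 4299.5 and 4129.9 in the 3 control samples and 905, 798 and 863 with lapatinib. The groups did not overlap, and the log2 fold change was -2.23 ± 0.08 (SE), a 4.7-fold fall (edgeR adjusted p = 1.3e-06). TMEM97, an endoplasmic reticulum protein that takes part in cholesterol trafficking, went from 1434, 1329 and 1409.9 to 272, 306 and 318, a log2 fold change of -2.19 ± 0.08 (SE). STARD4, a soluble sterol transfer protein, was at 358, 385 and 371 in control samples and at 187, 226 and 252 with lapatinib. Its fall of 1.65-fold was smaller than that of LRP8 and TMEM97 by value, and the groups again did not overlap.

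Within sterol synthesis, the largest falls were those of ACAT2, at the first step, and of DHCR7 and EBP, in the late steps. ACAT2, the cytosolic thiolase that joins acetyl-CoA units, was at 1139.5, 693 and 1121 in controls and at 257, 213 and 258 with lapatinib. The second control sample was lower than the other two, yet all control samples were above the lapatinib samples, and the log2 fold change was -2.00 ± 0.19 (SE). DHCR7, which forms cholesterol in the last reduction step, went from 5805, 5566 and 5633 to 1611, 1514 and 1637. Its replicates lay close together, and the log2 fold change was -1.81 ± 0.05 (SE) (edgeR adjusted p = 1.3e-06). EBP, the sterol isomerase of the late pathway, fell from 1723 ± 275 to 624 ± 40.5 normalized counts (SD, n = 3), a log2 fold change of -1.44.

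The isoprenoid steps fell by intermediate amounts. FDPS, which makes farnesyl diphosphate, changed by -1.14 ± 0.10 (SE) on the log2 scale and IDI1, the isopentenyl diphosphate isomerase before it, by -1.04 ± 0.07 (SE). HMGCS1, the HMG-CoA synthase that feeds the mevalonate pathway, was at 2371, 1994 and 2527 in controls and at 1488, 1410.1 and 1640.2 with lapatinib. The lapatinib samples were all below the controls, with a log2 fold change of -0.58 ± 0.09 (SE). SQLE, which oxidizes squalene, was at 9799, 7928 and 9583 and at 5065, 4154 and 5157, a 1.87-fold fall. Further falls were seen for SC4MOL (-0.79), MVD (-0.77), HSD17B7 (-0.59), CYP51A1 (-0.51), NSDHL (-0.49), LSS (-0.49) and FDFT1 (-0.32), enzymes between mevalonate diphosphate and the late sterols, all as log2 fold changes. HSD17B7 was no longer called without control sample 3 or without lapatinib sample 3. ACAT2, FDPS, IDI1 and TMEM97 had expected counts that were not whole in 11 or 12 libraries, so some of their reads were divided with other genes and their values are less certain.

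Within sterol synthesis 4 genes did not fall. TM7SF2, a sterol C14 reductase, rose from 671, 744 and 618 to 957, 859 and 886, with no overlap and a log2 fold change of 0.43 ± 0.09 (SE) (edgeR adjusted p = 0.0037). The mevalonate kinase MVK was at 1889, 1716 and 1902 in controls and at 1924, 1478 and 2121 with lapatinib, and the groups overlapped. Its log2 fold change of 0.03 had a 95% interval of -0.25 to 0.31. PMVK, the phosphomevalonate kinase, was at 0.12 (-0.18 to 0.41), and SC5DL, the lathosterol oxidase, at -0.02 (-0.29 to 0.25). None of these intervals reached a fall of 0.5 on the log2 scale.

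The regulators did not move as a group. INSIG1, itself a target of SREBP, went from 1355, 1404 and 1416 in controls to 307, 289 and 361 with lapatinib, a log2 fold change of -2.10 ± 0.09 (SE). SREBF2 was at 5982, 5577 and 5983 and at 4546, 4156 and 4997. Its fall was 1.26-fold, with no overlap between the groups. SREBF1 was at 18558, 25653 and 19137 and at 17675, 21982 and 19642. The second control sample was the highest of the 6, the groups overlapped, and the log2 fold change of -0.08 had a 95% interval of -0.38 to 0.23. SCAP was at -0.06 (-0.23 to 0.10) on the log2 scale. SREBF1 and SCAP had expected counts that were not whole in 10 and 12 libraries, and the count of SREBF1 sums all its transcripts.

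Among the fatty acid genes, the desaturation and elongation steps fell more than fatty acid synthase. SCD, which makes oleate, was at 34701, 36395 and 33441 in controls and at 16036, 16784 and 15733 with lapatinib. The replicates lay close together in both groups, with a log2 fold change of -1.08 ± 0.05 (SE) (edgeR adjusted p = 2.8e-06). ELOVL6, which elongates palmitate, went from 2318, 1972 and 2385 to 877, 596 and 831, a log2 fold change of -1.51 ± 0.14 (SE). FASN was at 212596, 251011 and 212476 in controls and at 208234, 179506 and 198747 with lapatinib. All lapatinib samples were below the controls, but the log2 fold change of -0.18 (-0.38 to 0.01) did not pass the test (edgeR adjusted p = 0.091), whereas it passed with DESeq2 and without the filter on low counts. ME1, the malic enzyme that supplies NADPH, changed by -0.87, ACSL3, a long-chain acyl-CoA synthetase, by -0.85, ACLY by -0.72 and ACACA by -0.63, and all were called lower. ACSS2, which makes acetyl-CoA from acetate, was at 0.09 (-0.06 to 0.24) and LPIN1, the phosphatidate phosphatase lipin 1, at -0.10 (-0.25 to 0.06), neither of them called.

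FADS2, the first desaturase of polyunsaturated fatty acid synthesis, had 14, 12 and 20 counts in the control samples and 3, 5 and 2 with lapatinib. FADS1 had 2, 8 and 14 counts in the controls and 1, 1 and 0 with lapatinib. Both were called lower (edgeR adjusted p = 0.0043 and 0.022), but they passed the count filter through the control samples, and FADS1 was no longer called without lapatinib sample 3. With FOXA1 siRNA, FADS2 had 7, 9 and 7 counts in DMSO and 2, 3 and 2 with lapatinib, and FADS1 had 8, 4 and 3 and 2, 1 and 1. At this depth no fold change is given for either gene, and neither passed the count filter in the pairwise comparisons with FOXA1 siRNA that include lapatinib.

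**Figure D2:**
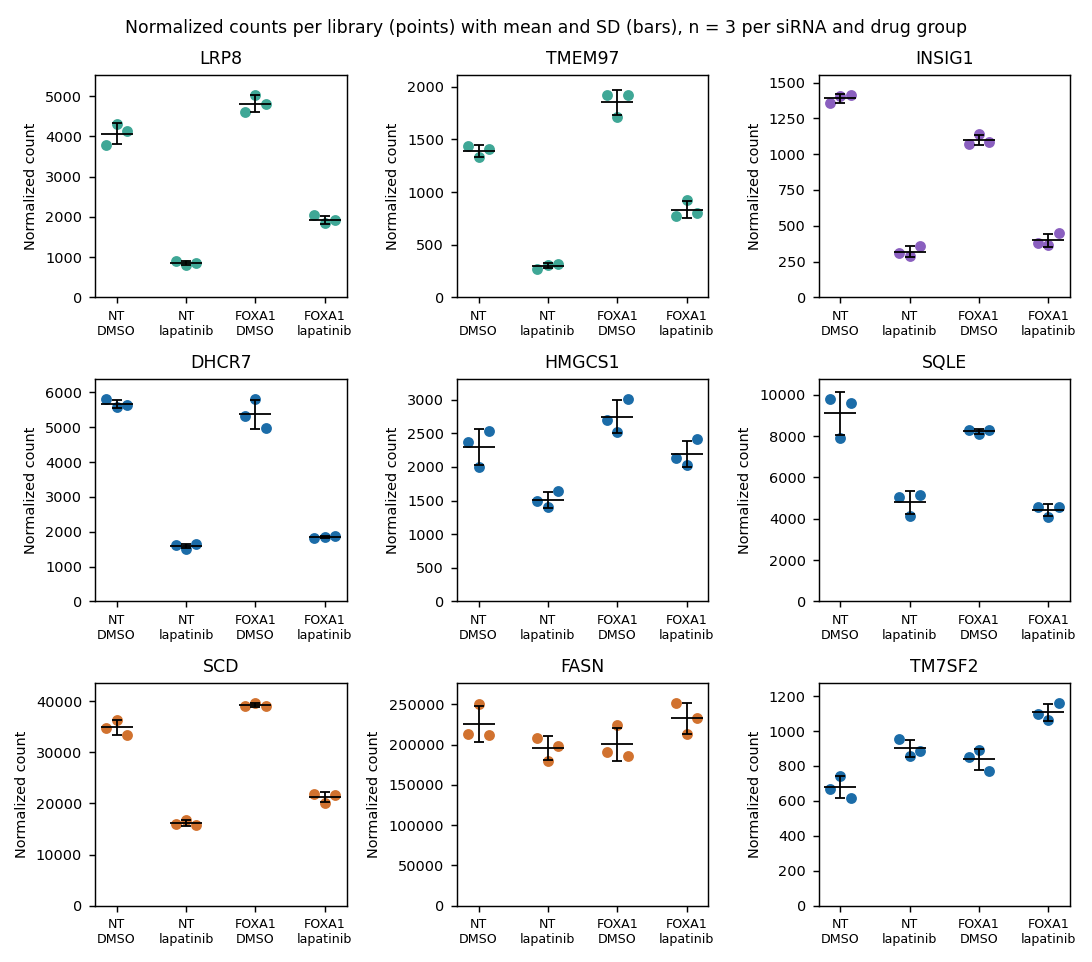
Normalized counts (y axis, from 0) of 9 genes in the 12 libraries by siRNA and drug (x axis), with points for libraries and black lines for the mean and SD of 3. LRP8, TMEM97, INSIG1, DHCR7, SQLE and SCD are lower in every lapatinib library than in every DMSO library of the same siRNA, FASN overlaps between the drugs with FOXA1 siRNA, and TM7SF2 is higher with lapatinib.

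To show what the promoters of these genes hold, whether or not the genes fell, the window from 250 bases before to 50 bases after each annotated start was searched for known elements in the RefSeq sequences (GRCh38.p14). RefSeq entries were found for 32 of the 36 genes, with 44 windows in all. ACAT2, FASN, FDFT1 and SQLE had no entry. The elements were searched on both strands. The sterol regulatory element, the site SREBP binds, was searched as TCACNCCAC, and 1 of the 32 genes held it (SREBF2), against 1.39% of all genes with a promoter. The same element without its first letter, CACNCCAC, contains every match of the longer form and was added after the data were seen. It was found in ACACA, IDI1, INSIG1, SC5DL, SCD and SREBF2, 18.8% of the 32 genes against 7.05% of all genes. The CCAAT box, the site of the factor NF-Y, known as a partner of SREBP, was found in 15 of the 18 sterol synthesis, uptake and transport genes with an entry and in 6 of the 10 fatty acid genes, against 39.7% of all genes and 43.1% of the genes tested. The GC box GGGCGG was found in 31 of the 32, against 75.5% of the genes tested. The E-box CACGTG was found in 4 of the 32, or 12.5%, against 12.6% of the genes tested. Of the FOXA1 motif in its forms GTAAACA and GTCAACA, the first was found in ELOVL6 and the second in IDI1. Each was thus in 1 of the 32 genes (3.12%), near the 4.19% and 2.83% of all genes and the 3.48% and 2.2% of the genes tested. The CCAAT box was also found in MVK, SC5DL and ACSS2, which were not called with lapatinib and NT siRNA, and in TM7SF2, which rose. LRP8 and ELOVL6, with the largest falls among uptake genes and measurable fatty acid genes, held neither form of the sterol element and no CCAAT box in this window. These matches describe the letters of the windows, and binding was not measured here.

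Stretches of 5 promoters are shown because they hold these elements in genes that fell with lapatinib, SREBF2 for its full sterol regulatory element and the others, added after the search, for the largest fall in each role among genes with a short element or CCAAT box, TMEM97 for uptake, DHCR7 for synthesis, INSIG1 for the regulators and SCD for the fatty acid genes. The SREBF2 stretch lies at chr22:41832957-41833018 on the plus strand, 148 to 87 bases before the start. The DHCR7 stretch lies at chr11:71448422-71448502 on the minus strand, 109 to 29 bases before the start. The TMEM97 stretch lies at chr17:28318987-28319134 on the plus strand, 213 to 66 bases before the start. The INSIG1 stretch lies at chr7:155297655-155297727 on the plus strand, 223 to 151 bases before the start. The SCD stretch lies at chr10:100346989-100347141 on the plus strand, 244 to 92 bases before the start. Each reads 5′ to 3′ in the direction of the gene, upstream of the annotated transcript, with the sterol regulatory element, its shorter form or the CCAAT box of either strand in capitals.
SREBF2: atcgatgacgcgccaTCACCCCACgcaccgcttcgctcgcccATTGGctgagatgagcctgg
DHCR7: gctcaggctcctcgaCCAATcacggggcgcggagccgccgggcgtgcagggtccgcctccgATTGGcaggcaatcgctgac
TMEM97: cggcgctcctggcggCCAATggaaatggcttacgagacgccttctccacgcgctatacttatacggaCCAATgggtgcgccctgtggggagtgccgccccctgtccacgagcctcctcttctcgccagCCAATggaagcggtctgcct
INSIG1: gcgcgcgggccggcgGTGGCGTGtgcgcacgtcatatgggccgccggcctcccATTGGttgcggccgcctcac
SCD: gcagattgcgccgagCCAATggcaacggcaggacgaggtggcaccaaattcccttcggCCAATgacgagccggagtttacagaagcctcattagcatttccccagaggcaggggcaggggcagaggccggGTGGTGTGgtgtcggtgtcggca
The TMEM97 stretch holds 3 CCAAT boxes and the DHCR7 stretch 2, with neither form of the sterol element. INSIG1 and SCD combine the shorter element with 1 and 2 CCAAT boxes. SREBF2, which fell by 1.26-fold, holds the full element and 1 CCAAT box, and the genes with larger falls shown here do not hold the full element in this window.

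In cells with FOXA1 siRNA, lapatinib again lowered most of these genes, by smaller amounts. Of the 34 genes, 23 fell, 2 rose and 9 did not pass the test, with a median log2 fold change of -0.34. Over the 13745 genes tested, 29.1% were called lower and 29% higher, with a median of 0.01. A fall of at least 1 on the log2 scale was seen in 6 members (ACAT2, DHCR7, INSIG1, LRP8, TMEM97 and ELOVL6) and in 5.12% of all genes tested. The sterol synthesis, uptake and transport genes counted 15 lower and 1 higher of 21 with a median of -0.41, and the fatty acid genes 6 lower and 1 higher of 9 with a median of -0.34. The 23 genes were all among those that fell with NT siRNA, and 21 of them had a smaller fall by value with FOXA1 siRNA, the exceptions being STARD4 and SREBF2. Neither share was computed over all genes, so these counts describe the members and are not read as particular to them. When replicate was added as a blocking term (replicate block), PMVK (edgeR adjusted p = 0.02) was also called higher, and FDFT1, LPIN1 and SCAP (0.019, 0.018 and 0.017) were also called lower, where 34.5% and 34.1% of all genes tested were called higher and lower. Without sample 2 of every group, PMVK and SREBF1 (0.12 on the log2 scale) were also called higher, with no share of all genes given for that fit.

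Whether the responses differed was tested by an siRNA by drug interaction over all 12 samples, given as the log2 fold change after lapatinib with FOXA1 siRNA minus that with NT siRNA. It was above 0 in 8 genes and below 0 in 0 genes by edgeR's test, against 3.99% and 3.2% of the 14012 genes tested. At an unadjusted p under 0.05 it was above 0 in 19 genes and below 0 in 0, and DESeq2 called 12 above and 0 below. For these counts the share over all genes is not given, so they are not read as a result about the members. The 8 were 4 genes of sterol synthesis, 2 of uptake and transport, INSIG1 and ACSL3. The median over the 34 genes was 0.27, against 0.01 over all genes tested. TMEM97, LRP8 and INSIG1 were called in all 12 leave-one-out fits. The other 5 were lost in 6 to 10 of those fits, so that the count ranged from 3 to 12, where 300 to 782 genes in all were above 0. With the replicate block, 19 genes were called above 0 and 0 below, against 11.1% and 9.22% of all genes tested, the additions being ACACA, ACLY, CYP51A1, ELOVL6, FASN, FDFT1, HMGCS1, ME1, NSDHL, SC4MOL and SCD (edgeR adjusted p between 0.00087 and 0.045). Without sample 2 of every group, 20 genes were called above 0, the 8 among them, and 0 below, against 10.3% and 7.88%. The additions were ACACA, ACAT2, ACLY, CYP51A1, ELOVL6, FASN, HSD17B7, LSS, ME1, NSDHL, SC4MOL and SCD.

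The largest differences were in the uptake and transport genes. TMEM97 was at 1921, 1713 and 1924 with FOXA1 siRNA and DMSO and at 777, 923 and 801 with FOXA1 siRNA and lapatinib. The fall remained without overlap but was 2.21-fold rather than 4.58-fold, a difference of 1.06 ± 0.12 (SE) on the log2 scale (edgeR adjusted p = 0.0006). LRP8 went from 4602, 5037 and 4810.3 to 2037, 1839 and 1919, a log2 fold change of -1.31 ± 0.06 (SE). The difference from NT siRNA was 0.93 ± 0.09 (SE) (edgeR adjusted p = 0.00032), and the lapatinib samples with FOXA1 siRNA were all above those with NT siRNA. STARD4 went from 195, 237 and 218 to 105, 119 and 166, with a difference of 0.00 and a 95% interval of -0.50 to 0.51, which does not exclude a difference of either sign up to 0.5.

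INSIG1 was at 1074, 1142 and 1085 in DMSO and at 378, 364 and 450.3 with lapatinib under FOXA1 siRNA. Its log2 fold change was -1.46 in place of -2.10, a difference of 0.66 ± 0.13 (SE) (edgeR adjusted p = 0.011). Among the synthesis genes, DHCR7 went from 5327, 5809 and 4964 to 1815, 1853 and 1872, a difference of 0.30 ± 0.08 (SE). EBP, FDPS and IDI1 differed by 0.54, 0.50 and 0.43 (edgeR adjusted p = 0.044, 0.034 and 0.033). ACAT2 went from 515, 422 and 517 to 157, 167 and 157, and its difference of 0.43 (-0.11 to 0.96) was not called with all samples. It was called without sample 2 of NT siRNA and DMSO and without sample 2 of every group. SQLE was at 8311, 8103 and 8274 and at 4591, 4109.6 and 4576. Its response was -0.89 against -0.90 with NT siRNA, with a difference of 0.03 (-0.25 to 0.31). HMGCS1 was at 2705, 2525 and 3011 and at 2131, 2034 and 2417, a log2 fold change of -0.32, and its difference of 0.28 was called only with the replicate block (edgeR adjusted p = 0.005, without it 0.27).

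The remaining falls of sterol synthesis genes with FOXA1 siRNA were led by EBP. They were -0.92 for EBP, -0.65 for FDPS, -0.63 for IDI1, -0.45 for MVD, -0.41 for SC4MOL, -0.30 for CYP51A1, -0.26 for LSS and -0.24 for NSDHL, as log2 fold changes. MVD was no longer called without lapatinib sample 1 of these cells, nor was NSDHL in 4 of the 6 fits that left out 1 library. HSD17B7 at -0.05 (-0.36 to 0.25), MVK at -0.03 (-0.28 to 0.23) and SC5DL at 0.02 (-0.18 to 0.22) were not called. TM7SF2 rose here too, from 851, 889 and 773 to 1097, 1064 and 1159, with no overlap and a log2 fold change of 0.41 ± 0.07 (SE).

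Fatty acid genes with FOXA1 siRNA kept the order seen with NT siRNA for the largest falls. SCD was at 38980.1, 39595 and 39077 in DMSO and at 21816, 20120.2 and 21650.5 with lapatinib, a log2 fold change of -0.88 ± 0.04 (SE). The difference from NT siRNA was 0.22 (edgeR adjusted p = 0.053, with the replicate block 0.017). ELOVL6 went from 2796, 2371 and 2839.6 to 1417, 1183 and 1345, a log2 fold change of -1.01 ± 0.09 (SE). FASN went from 191067, 223775 and 185714 to 251418, 213083 and 233592. It was called higher, at 0.23 ± 0.08 (SE) (edgeR adjusted p = 0.038), although the groups overlapped, and it was no longer called in 4 of the 6 fits that left out 1 library or with all 12 samples in the model. The difference in the FASN response of 0.42 (0.15 to 0.70) was not called (edgeR adjusted p = 0.065, with the replicate block 0.028). ACSL3 was at -0.31 with FOXA1 siRNA and -0.85 with NT siRNA. It was the 1 fatty acid gene whose difference was called by edgeR with all samples and without the block, at 0.55 ± 0.13 (SE) (edgeR adjusted p = 0.027). DESeq2 also called FASN and SCD, 3 in all, and with the replicate block 7 fatty acid genes were called. ME1 was at -0.60, ACLY at -0.54 and ACACA at -0.34, all called lower, the last of them lost in 3 of the 6 fits that left out 1 library. ACSS2 and LPIN1 were not called.

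SREBF2 fell by a like amount under either siRNA, from 5201, 5136 and 5356 to 4048, 3852 and 4452 with FOXA1 siRNA, and the difference of 0.01 had a 95% interval of -0.20 to 0.22. SREBF1 was at 21904, 28908 and 21744 in DMSO and at 22889.5, 24419 and 24465 with lapatinib under FOXA1 siRNA. The groups overlapped, and the log2 fold change of -0.01 had a 95% interval of -0.24 to 0.23. For SREBF1 mRNA neither response to lapatinib was called with all samples, while INSIG1 fell in both.

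**Figure D3:**
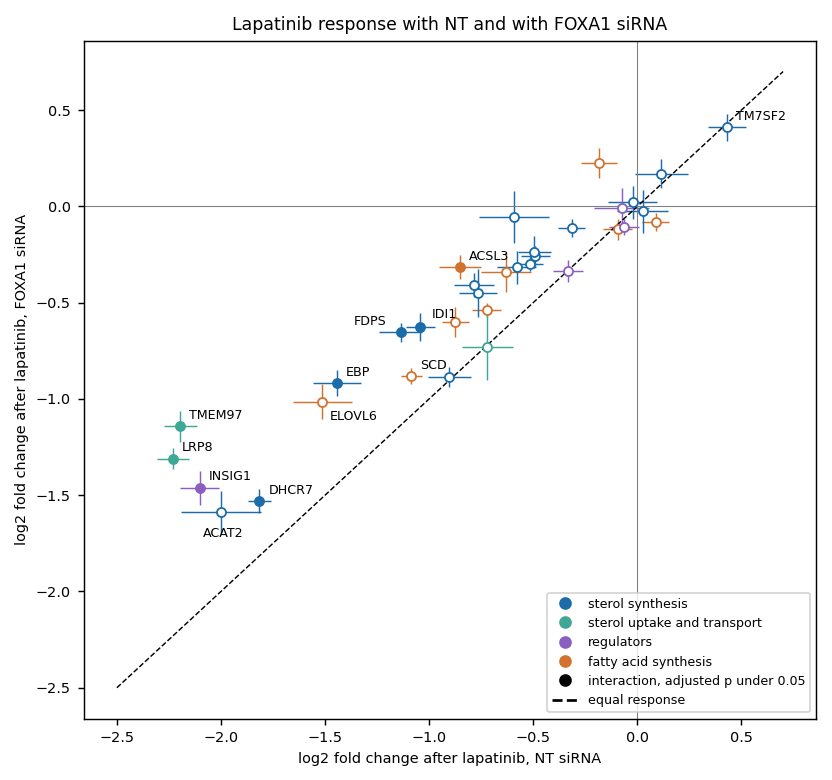
Log2 fold change after lapatinib with NT siRNA (x axis) and with FOXA1 siRNA (y axis) for the 34 genes with a mean count of at least 100, with standard errors as bars, colors for roles and filled circles for an interaction with an adjusted p under 0.05. Most genes lie above the dashed line of equal response, with TMEM97 and LRP8 farthest from it, and SQLE, STARD4, SREBF2 and TM7SF2 lie on or near it.

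FOXA1 siRNA alone, compared with NT siRNA in DMSO, lowered more of the genes than it raised. Of the 34 genes, 14 fell, 7 rose and 13 did not pass the test, with a median log2 fold change of -0.13. Over the 13694 genes tested, 21.3% were called lower and 21.9% higher. Of all 36 genes, FADS2 among the lower, 41.7% were called lower and 19.4% higher. The rises were thus near the share of all genes and are not read as a result about the members. A fall of at least 1 on the log2 scale was seen in 1 of the 34 genes, ACAT2, near the 2.77% of all genes tested. Sterol synthesis genes counted 9 lower and 2 higher of 18, and fatty acid genes 2 lower and 3 higher of 9. The counts over all 36 genes include FADS2 as lower, which passed the count filter through the control samples and has too few counts for a fold change. With the replicate block these counts went from 15 to 19 lower and from 7 to 11 higher, where 30.2% and 30.3% of all genes tested were called lower and higher. The additions were CYP51A1, FASN, NSDHL and SQLE as lower (edgeR adjusted p = 0.012, 0.00015, 0.041 and 0.035) and ACACA, PMVK, SCAP and SREBF1 as higher (0.044, 0.042, 0.047 and 7.2e-05). Without sample 2 of every group, CYP51A1, DHCR7, FASN, NSDHL and SQLE were also called lower and SCAP and SREBF1 higher. The share of all genes in that fit is not given, so these additions are not read as a result about the members. This comparison shares its control samples with that of lapatinib and NT siRNA.

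The falls in DMSO were led by ACAT2, STARD4 and MVD. ACAT2 went from 1139.5, 693 and 1121 with NT siRNA to 515, 422 and 517 with FOXA1 siRNA, a log2 fold change of -1.01 ± 0.18 (SE) (edgeR adjusted p = 0.0032). STARD4 went from 358, 385 and 371 to 195, 237 and 218, a log2 fold change of -0.76 ± 0.10 (SE). For both genes the groups did not overlap. MVK, which lapatinib did not change detectably, went from 1889, 1716 and 1902 to 1198, 1246 and 1283, with a log2 fold change of -0.55 ± 0.06 (SE). MVD (-0.70), LSS (-0.54), HSD17B7 (-0.51), IDI1 (-0.50), FDFT1 (-0.44), EBP (-0.32) and FDPS (-0.30) also fell, as did INSIG1 (-0.33), SREBF2 (-0.15), ACLY (-0.38) and ACSL3 (-0.29). HSD17B7, EBP, FDPS and SREBF2 were lost in 4 or 5 of the 6 fits that left out 1 library. DHCR7 at -0.07 (-0.20 to 0.07), SC4MOL at -0.01 (-0.17 to 0.15) and SC5DL at -0.11 (-0.33 to 0.10) were not called.

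The rises in DMSO, which were near the share of all genes called higher, were led by LPIN1, TMEM97 and TM7SF2. LPIN1 went from 1369, 1494 and 1388 with NT siRNA to 2242, 2170.3 and 2322 with FOXA1 siRNA, a log2 fold change of 0.68 ± 0.06 (SE) (edgeR adjusted p = 8.6e-05). TMEM97 and LRP8 rose by 0.43 and 0.26, TM7SF2 by 0.32, and ELOVL6, HMGCS1 and SCD by 0.28, 0.27 and 0.18, on the log2 scale. For ELOVL6 and HMGCS1 the groups overlapped, and the calls of ELOVL6, HMGCS1 and TM7SF2 were lost in 4 of the 6 fits that left out 1 library. ACSS2 at 0.04, ME1 at 0.06, ACACA at 0.09 and FASN at -0.16 were not called without the block.

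In lapatinib-treated cells, FOXA1 siRNA raised more of the genes than it lowered. Of the 34 genes, 13 rose, 7 fell and 14 did not pass the test, with a median log2 fold change of 0.19. Over the 13727 genes tested, 22.7% were called higher and 22.2% lower. A rise of at least 1 on the log2 scale was seen in TMEM97 and LRP8, 2 members, and in 4.51% of all genes tested. Sterol synthesis genes counted 5 higher and 5 lower of 18, and fatty acid genes 5 higher and 1 lower of 9. This comparison shares its NT siRNA samples with that of lapatinib and NT siRNA, where the same samples are the treated group. With the replicate block, ACACA, ACSL3, CYP51A1, EBP, INSIG1 and PMVK were also called higher (edgeR adjusted p = 1.1e-05, 0.0002, 0.041, 0.0075, 0.0026 and 0.011) and ACSS2, SQLE and SREBF2 lower (0.023, 0.019 and 0.0016), where 30.6% and 31.1% of all genes tested were called higher and lower. Without sample 2 of every group, ACACA, ACSL3 and EBP were also called higher and ACSS2, SQLE and SREBF2 lower, and FDPS was no longer called. No share of all genes is given for that fit, so its additions are not read as a result about the members.

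TMEM97 was at 272, 306 and 318 with NT siRNA and at 777, 923 and 801 with FOXA1 siRNA in lapatinib, 2.77-fold higher (log2 fold change 1.47 ± 0.10 (SE), edgeR adjusted p = 1.7e-05). LRP8 was 2.25-fold higher (1.17 ± 0.07 (SE)). Neither gene reached its level in control cells, where the lowest samples held 1329 and 3786 normalized counts. ELOVL6 rose by 0.77, HMGCS1 by 0.53, SCD by 0.38 and ME1 by 0.33, with no overlap between the groups. LPIN1 was at 1339.6, 1239 and 1343 with NT siRNA and at 2138, 1949 and 2078 with FOXA1 siRNA, a log2 fold change of 0.65 ± 0.06 (SE) that was close by value to the 0.68 in DMSO. Smaller rises were called for SC4MOL (0.36), TM7SF2 (0.29), SREBF1 (0.27), FASN (0.24), DHCR7 (0.21) and FDPS (0.18). Those of SREBF1, FASN and FDPS were lost in 4 or 5 of the 6 fits that left out 1 library.

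The genes that fell with FOXA1 siRNA in lapatinib had also fallen in DMSO. They were STARD4, ACAT2, MVK, MVD, LSS, FDFT1 and ACLY. At 20.6% of the 34 genes, these falls were near the 22.2% of all genes called lower in lapatinib. The share of all genes lower in both comparisons is not given. Neither the number of falls nor their overlap is therefore read as a result about the members. STARD4 changed by -0.78 ± 0.19 (SE) and ACAT2 by -0.60 ± 0.12 (SE) on the log2 scale. MVK went from 1924, 1478 and 2121 to 1264, 991 and 1388, with no overlap and a log2 fold change of -0.61 ± 0.16 (SE), but its call was lost without NT siRNA and lapatinib sample 3. MVD, LSS, FDFT1 and ACLY changed by -0.39, -0.31, -0.25 and -0.20, the first and the last lost in 2 and 5 of the 6 fits that left out 1 library. Of all 34 genes, 7 rose with FOXA1 siRNA under either drug condition (ELOVL6, HMGCS1, LPIN1, LRP8, SCD, TM7SF2 and TMEM97), and FDPS fell in DMSO and rose in lapatinib. The share of all genes with these patterns is not given, so the counts only describe the members. IDI1 (-0.10), NSDHL (0.12), HSD17B7 (0.03), SC5DL (-0.08) and SCAP (0.04) were not called with or without the block. In the 4 pairwise comparisons with all their samples and TMM scaling, ACSS2, PMVK, SC5DL and SCAP were not called without the block.

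Summed over each branch, the level of the 21 sterol genes separated the drugs in every sample under either siRNA. It was 1353 to 1528 TPM in control samples and 732 to 826 TPM with lapatinib, and with FOXA1 siRNA 1274 to 1285 TPM in DMSO and 797 to 860 TPM with lapatinib. The sum of the 11 fatty acid genes, most of it FASN, was 3100 to 3520 TPM in control samples and 2144 to 2476 TPM with lapatinib. With FOXA1 siRNA it was 2807 to 3180 TPM in DMSO and 2475 to 2852 TPM with lapatinib, and these groups overlapped. A difference between the branches was not tested, since the genes of a list are not replicates.

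Genes around these pathways, in lists fixed by function, were counted in the same fits. With NT siRNA and lapatinib, the genes of the liver X receptors (LXR), which sense oxysterols, and of their targets counted 6 higher and 0 lower of 8 tested. The cholesterol efflux pump ABCA1 rose by 2.08 ± 0.16 (SE) on the log2 scale, SMPDL3A by 1.14 and NR1H3, which encodes LXR alpha, by 1.01. Fatty acid oxidation counted 9 higher and 0 lower of 15, with ACADM, the medium-chain acyl-CoA dehydrogenase, at 1.11 and PPARA at 0.81. Sterol sensing and trafficking counted 7 higher and 2 lower of 13, with SCARB1, a lipoprotein receptor, at -0.68, MBTPS1, the first SREBP-cleaving protease, at 0.61 and VLDLR at -0.59. In the LXR and oxidation lists, 0 genes were lower at an unadjusted p under 0.05 or by DESeq2 as well. These lists are to be read against the 30.5% and 29.2% of all genes tested that were called higher and lower.

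Other branches of the mevalonate pathway counted 3 higher and 5 lower of 10, led by PDSS1, which builds the side chain of coenzyme Q, at -2.23, followed by COQ2 at -0.66 and FNTA at 0.46. Glycerolipid assembly counted 2 higher and 4 lower of 12, with the lipid droplet protein PLIN2 at -1.44, AGPAT2 at 0.99 and DGAT2 at -0.90. The other elongases, desaturases and acyl-CoA synthetases counted 1 higher and 3 lower of 13, with ACSL4 at -1.76, THRSP at 0.56 and ELOVL5 at -0.37. Of the 71 genes tested in these lists, the interaction was above 0 in 6 and below 0 in 3, against 3.99% and 3.2% of all genes tested. The response to lapatinib was less negative with FOXA1 siRNA for ACSL4 (1.29), PDSS1 (0.66), VLDLR (0.62) and SCARB1 (0.50), and the rise was smaller for MBTPS1 (-0.29). The other calls, named after their values were seen, were RABGGTB (0.54) and ABCG1 (0.35) above 0 and LPIN2 (-0.46) and ETFDH (-0.41) below 0. ABCA1 rose by 2.25 with FOXA1 siRNA, and its difference of 0.19 was not called.

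**Figure D4:**
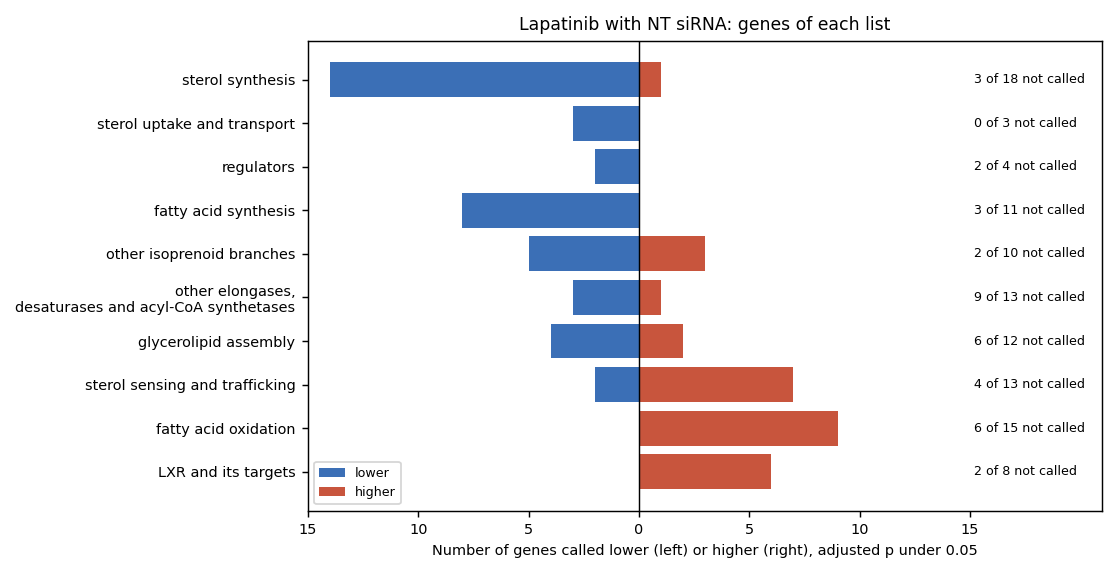
Number of genes called lower (left of 0) or higher (right of 0) after lapatinib with NT siRNA (x axis) in the 4 roles and the 6 surrounding lists (y axis), with the number not called at the right. The 4 roles extend to the left, whereas fatty acid oxidation (9 higher) and LXR and its targets (6 higher) extend to the right. The bar of fatty acid synthesis (8 lower of 11) includes FADS1 and FADS2, whose counts are too few for a fold change. Without them it would hold 6 lower of 9.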

How the data were processed

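RNAseq libraries of polyA RNA were made from 12 SKBR-3 samples, 3 in each of 4 groups of siRNA and drug. The labels name a stranded KAPA kit in the protocol and Illumina TruSeq v2 among the characteristics, and they give 48 h of siRNA where the methods give a shorter time. For each library the authors deposited an expected count per gene, which estimates the reads of a gene and need not be whole, together with TPM. The deposited normalized signal is the expected count after upper-quartile scaling by the authors, and it served here only to check the unit. The submitters' processing notes name RSEM, R 3.2.2, DESeq and DESeq2 1.12.3, whereas the methods name STAR, hg38 and Salmon. Reads shared between genes were therefore divided by estimation, and counting by strand is not given in the sources used here. Rows without a gene symbol held 0.031% to 0.046% of the counts and were left out.

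Expected counts (87.8% to 88.5% of values per library already whole) were rounded and tested with edgeR 4.0.16 in R 4.3.3 (TMM, glmQLFit and glmQLFTest) after removal of genes that reached 10 counts in no sample of the fit. Each pairwise fit used the 6 samples of its groups, the interaction all 12. P-values were adjusted by Benjamini-Hochberg over all genes tested. Standard errors were derived from the F statistic and 95% intervals from the t distribution. Log2 fold changes use edgeR's default prior count. The procedure was tested on simulated data first. Counts carry no molecular identifiers, so low counts are subject to PCR as well as counting error.

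The members, lists and tests were chosen with earlier results of these data known. Every gene except FADS1 and FADS2, whose counts are too few, is named by its log2 fold change. Values of every library are given for 8 genes fixed by role and for the largest called changes of each comparison, at most 3 in each direction. The lists of surrounding genes are named by up to 3 genes with the largest called change with lapatinib and NT siRNA. A gene of the oxidation list picked by this rule is not reported here. The promoter stretches other than SREBF2, the shorter sterol element and the list medians without FADS1 and FADS2 were added after the data were seen.

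Deviations from the group mean correlated between samples of the same replicate number, at 0.301 to 0.704 in all 18 pairs (10798 genes). Between different numbers the correlations were -0.534 to 0.239, with a mean of -0.212. Deviations sum to 0 within each group, so this negative mean follows from the positive correlations and is not separate support. How much of the pattern came from sample 2, which stood apart in every group, was not tested. The numbers were thus taken to pair the samples, and a replicate block was fitted as an alternative. No 2 replicates matched within sampling noise. Other alternatives were RLE and upper-quartile scaling, DESeq2 1.42.0, other count filters, 1 model of all 12 samples, stricter thresholds, leaving out each library in turn and, added after the data were seen, leaving out sample 2 of every group. Python 3.11.15, pandas 2.3.3, scipy 1.17.1 and matplotlib 3.10.9 made the tables and plots.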

Additional observations from a re-analysis of the deposited data

Results flagged for a closer look

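The response to lapatinib differed between the siRNAs by the test of the difference itself in 8 genes. The log2 fold change with FOXA1 siRNA minus that with NT siRNA was 1.07 for TMEM97, 0.934 for LRP8, 0.655 for INSIG1, 0.55 for ACSL3, 0.542 for EBP, 0.496 for FDPS, 0.428 for IDI1 and 0.297 for DHCR7. All 8 fell with lapatinib under either siRNA, and each fell less with FOXA1 siRNA. A smaller fall did not always mean a higher level in lapatinib. FOXA1 siRNA lowered IDI1, INSIG1, EBP and ACSL3 in DMSO (-0.50, -0.33, -0.32 and -0.29), and FDPS as well (-0.30). In lapatinib these 4 genes were not called without the block (-0.10, 0.31, 0.20 and 0.23), whereas TMEM97, LRP8, DHCR7 and FDPS were called higher. With the block INSIG1, EBP and ACSL3 were called higher too. With 3 samples in a group, no gene was tested for an outlying sample, while over all genes sample 2 of every group stood apart from the other samples. The 8 genes were also called without these libraries.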

How the results depend on the processing

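RLE and upper-quartile scaling, which moved the median of all genes by under 0.1 on the log2 scale, kept the counts over all members within 1.5 times those reported, as did DESeq2, no filter on low counts and at least 10 counts in every sample, although DESeq2 called 3 fatty acid genes in the interaction where edgeR called 1. Of the single-gene values under alternatives, 494 of 501 kept direction and call for lapatinib with NT siRNA, 454 of 476 for lapatinib with FOXA1 siRNA, 439 of 501 for FOXA1 siRNA in DMSO, 423 of 476 for FOXA1 siRNA in lapatinib and 600 of 681 for the interaction. With 1 model of all 12 samples, the members higher after lapatinib with FOXA1 siRNA went from 2 to 1. With the replicate block, 11 members were higher after FOXA1 siRNA in DMSO, and for the interaction 19 members and 1561 genes in all were above 0 and 1292 genes below. The replicate block lost no member call and changed no call of lapatinib with NT siRNA.

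At an adjusted p under 0.01, 1 member was higher after lapatinib with FOXA1 siRNA. FOXA1 siRNA in DMSO raised 3 members, and 1969 genes in all rose and 1830 fell. In lapatinib it raised 8 members and lowered 2, with 2061 genes higher and 1987 lower in all, and the interaction counted 2 members, with 156 genes above and 148 below 0. With a log2 fold change of at least 1, lapatinib with NT siRNA counted 0 members higher and 12 lower, or 10 without FADS1 and FADS2 (910 and 978 genes in all), lapatinib with FOXA1 siRNA 0 and 6 (678 and 704), FOXA1 siRNA in DMSO 0 and 2, or 1 without FADS2 (556 and 380) and FOXA1 siRNA in lapatinib 2 and 0 (619 and 535). Fewer calls follow from the stricter thresholds themselves.

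Without sample 2 of every group, which was chosen after seeing the data, members higher after lapatinib went to 2 with NT siRNA and 4 with FOXA1 siRNA, where SREBF1 changed sign and was called (0.12023), and the interaction counted 20 members, with 1426 genes above and 1092 below 0.

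Leaving out 1 library at a time, members higher after lapatinib ranged from 1 to 2 with NT siRNA, reaching 2 without lapatinib sample 2 (ACSS2 added), and from 1 to 3 with FOXA1 siRNA, where FASN was lost without sample 1 or 3 of either drug. In these fits 3474 to 4086 genes in all were higher with NT siRNA and 3450 to 3951 with FOXA1 siRNA. Members higher after FOXA1 siRNA in DMSO ranged from 4 (without sample 1 of either group) to 7, where 2295 to 3223 genes in all were higher. Members lower after FOXA1 siRNA in lapatinib ranged from 4 (without NT siRNA sample 3) to 10, where 2439 to 3143 genes in all were lower. The interaction ranged from 3 to 12 members, and from 300 to 782 genes above and 242 to 583 genes below 0. It counted 3 members without NT siRNA and DMSO sample 1 or 3 or FOXA1 siRNA and lapatinib sample 1 or 3, 4 without NT siRNA and lapatinib sample 1 or FOXA1 siRNA and DMSO sample 1 or 3, 5 without sample 2 of these groups, and 12 without NT siRNA and DMSO sample 2. The response of SREBF1 to lapatinib with FOXA1 siRNA, which was not called, ranged from -0.077 to 0.138 and changed sign without DMSO sample 2. These fits have fewer samples, and other causes were not tested. Counts of FADS1 and FADS2 are too few at this depth for a fold change.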
